A study of Dunaliella viridis with 39 samples.

Results

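The libraries described here follow a culture of Dunaliella viridis strain dumsii into nitrogen starvation, by setting cells 27 h after transfer to medium with no added nitrogen against cells 3 h after the same transfer. Their members were chosen by title and are the 3 no nitrogen libraries of 27 h and the 3 of 3 h, 6 of the 39 libraries of the series. The whole series followed cells in 4 media, which held no added nitrogen, 5 mM glutamate, 5 mM glutamine or 5 mM nitrate, at 3, 27 and 51 h, and also holds the inoculum. All cells were of 1 strain, grew under continuous light and came from an inoculum labelled as grown on nitrate. Per the labels the experiment was repeated 3 times, and a replicate number marks a repeat and its inoculum, so that libraries of a group come from separate cultures. Replicates 1 and 2 of both times were sequenced in run 1 and replicate 3 of both times in run 2, which balances the run over the times. The same split holds for glutamate and nitrate at 3 and 27 h. Replicate 2 of glutamine 27 h and of no nitrogen 51 h was sequenced in run 2, so the run is not balanced in comparisons that use those groups.

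Dunaliella viridis is a unicellular green alga of salt water that has no rigid cell wall. Green algae reduce nitrate to ammonium and build it into glutamine and glutamate. In green algae a loss of the nitrogen source is known to slow division, to reduce the photosynthetic apparatus and to direct carbon into starch and neutral lipid. The files name loci by number and pair no number with a gene, so the response is described by the levels, sizes and courses of loci, and no role can be given to any of them.

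Total counts of the 6 libraries ranged from 6499166 to 13934735, and 17569 of the 18495 loci in the table had enough counts to be tested. Levels of a locus are given in counts-per-million on TMM-scaled libraries (CPM), and loci are compared with each other in transcripts-per-million (TPM), which take transcript length into account. TPM are shares of the sequenced RNA, and CPM are such shares rescaled by a TMM factor per library. Being relative, neither can tell a change in RNA per cell from a change in a locus where all loci move together. Within the 27 h group the libraries correlated across loci at Pearson's r of 0.975 for replicates 1 and 2, 0.932 for 1 and 3 and 0.940 for 2 and 3. Within the 3 h group these were 0.956, 0.968 and 0.973. Of the other libraries used here, nitrate 3 h replicate 2 and no nitrogen 51 h replicate 1 stand apart from their groups. The loci that rose and fell without nitrogen held 9.49% and 24.2% of TPM in that nitrate library, against 2.86% and 6.83% in nitrate 3 h replicate 1 and 4.84% and 13.2% in replicate 3, and the 51 h library held 3406918 counts, against 10481703 and 32256557 in the other two. The counts, medians and overlaps of the nitrate course, the counts of loci that differ from nitrate, and the medians at 51 h are also given without the library concerned. The overlaps of the risen and fallen loci with those that differ from nitrate, and the share called for 51 h over 27 h, are not.

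Between 3 and 27 h without nitrogen, 2271 loci rose and 2491 fell, which is 27.1% of all loci tested (12.9% higher and 14.2% lower at 27 h; edgeR quasi-likelihood test, Benjamini-Hochberg adjusted p under 0.05). Among the loci called, 1130 rose at least 2-fold (6.43% of those tested) and 921 fell at least 2-fold (5.24%), 190 rose and 83 fell at least 4-fold, and 42 rose and 10 fell at least 8-fold. The median log2 fold change was 1.00 over the loci that rose and -0.88 over those that fell, against 0.05 over all loci tested. The CPM of the 27 h libraries lay wholly above those of the 3 h libraries for 3190 loci (18.2%) and wholly below for 3524 (20.1%). The rises numbered 1413 without replicate 3 of 27 h and also 1413 without replicate 3 of 3 h, and within run 1 alone there were 810 rises and 1415 falls. Scaling to library totals left 418 rises and 323 falls, limma on log2(TPM + 1) gave 279 and 223, so that rises outnumbered falls under both, and a fit of the 6 libraries alone gave 1508 and 1933. The main fit does not use the pairing of libraries by replicate number. With that number as a block, 2544 loci rose and 2811 fell.

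**Figure D1:**
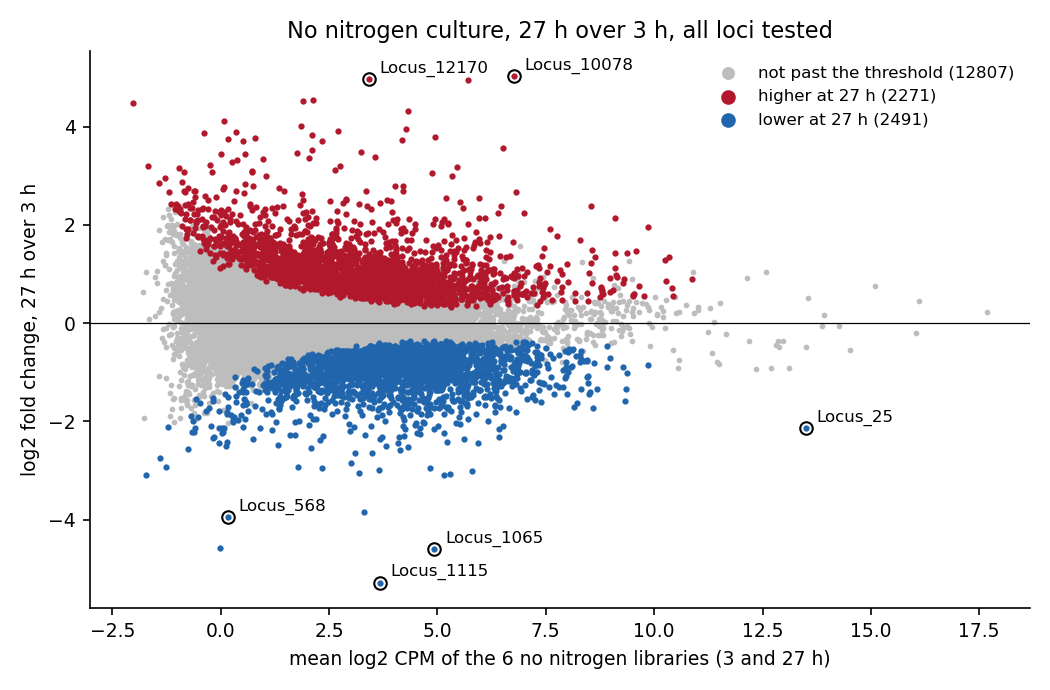
Log2 fold change of 27 h over 3 h without nitrogen (vertical axis) against mean log2 CPM of the 6 libraries (horizontal axis), 1 point per locus tested. The 2271 loci called higher and the 2491 called lower lie above and below 0 in separate bands, and the circled loci are those named in the text.

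The median change was smallest in replicate 1 and largest in replicate 3 for both sets. Within replicates 1, 2 and 3 the median log2 change was 0.73, 1.01 and 1.15 over the loci that rose and -0.67, -0.96 and -1.06 over those that fell, with medians of 0.00, 0.04 and 0.00 over all loci tested. These medians, and the agreement of replicates given next, describe loci chosen on the same libraries, so the calls largely set that agreement. Of the 2271 risen loci 2031 (89.4%) were higher at 27 h in all 3 replicates. Of the 2491 fallen loci 2433 (97.7%) were lower in all 3. Over all 17569 tested loci, 4281 were higher in all 3 and 4455 lower in all 3, together 49.7%. The changes of different replicates correlated across loci at Pearson's r of 0.382, 0.400 and 0.603 for replicates 1 and 2, 1 and 3, and 2 and 3. The 3 h library of replicate 1 correlated at 0.942 and 0.947 with the 27 h libraries of replicates 1 and 2, above the 0.926 and 0.910 of 3 h replicate 2 and the 0.928 and 0.924 of 3 h replicate 3. With these 27 h libraries, 27 h replicate 3 correlated at 0.932 and 0.940, lower than 3 h replicate 1 did. Its correlations with 3 h replicates 1, 2 and 3 were 0.905, 0.869 and 0.880.

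The 2 loci with the largest rises among well-measured loci were low at 3 h and lay at least an order of magnitude higher at 27 h. Locus_10078 was at 753, 658 and 466 CPM in the 27 h libraries of replicates 1, 2 and 3, against 22.7, 18.2 and 16.5 CPM in those of 3 h. The groups were far apart, and the level was highest in replicate 1 and lowest in replicate 3 at both times. The means were 626 ± 146 CPM at 27 h and 19.2 ± 3.19 CPM at 3 h (SD, n = 3 each), and log2 of 27 h over 3 h was 5.03 (SE 0.24, adjusted p = 8.18e-18 by edgeR). Locus_12170 was at 64.8, 49.2 and 63.5 CPM at 27 h, against 2.64, 1.49 and 1.45 CPM at 3 h. It rested on 27, 9 and 18 counts at 3 h and met the minimum mean through 27 h alone. Its mean was 59.2 ± 8.62 CPM at 27 h against 1.86 ± 0.676 CPM at 3 h (SD, n = 3 each; log2 of 27 h over 3 h 4.96, SE 0.31, adjusted p = 1.26e-14 by edgeR). The log2 changes within replicates 1, 2 and 3 were 5.04, 5.16 and 4.80 for Locus_10078 and 4.53, 4.89 and 5.29 for Locus_12170. In the inoculum, before transfer, Locus_10078 stood at 18.5 ± 3.84 CPM and Locus_12170 at 0.596 ± 0.0904 CPM (SD, n = 3).

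The 2 loci with the largest falls under the same rule stood at a few CPM at 27 h. With a mean of at least 10 CPM asked for, their higher level at 3 h is partly set by the rule. Locus_1115 was at 2.71, 3.44 and 0.449 CPM in the 27 h libraries, against 102, 71.0 and 90.5 CPM in the 3 h libraries. The replicates differed in how low it fell, with replicate 3 lowest, and no 27 h library came near a 3 h one. Its mean was 2.20 ± 1.56 CPM at 27 h and 87.8 ± 15.6 CPM at 3 h (SD, n = 3 each; log2 of 27 h over 3 h -5.28, SE 0.44, adjusted p = 1.62e-11 by edgeR). Locus_1065 was at 5.52, 5.52 and 7.55 CPM at 27 h, against 112, 190.1 and 153 CPM at 3 h. The 27 h values lay close together and far under the 3 h values, with means of 6.20 ± 1.17 CPM at 27 h and 151 ± 39.3 CPM at 3 h (SD, n = 3 each; log2 of 27 h over 3 h -4.61, SE 0.25, adjusted p = 2.56e-16 by edgeR). These 4 loci were named because their changes were extreme and their groups did not overlap. Their sizes thus lie at the edge of the distribution by choice, and the separation of their groups was a condition of naming.

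The largest change in share of counts among called loci was that of 1 locus, whose fall varied widely between repeats. Locus_25, chosen for this after its values were seen, took 1.08%, 0.507% and 0.199% of the counts in the 27 h libraries of replicates 1, 2 and 3, against 2.95%, 1.99% and 4.31% in those of 3 h. The groups did not overlap. The log2 changes by replicate were -1.12, -2.20 and -4.54, and the fit gave -2.13 (SE 0.82, adjusted p = 0.0486 by edgeR). The call was lost without 27 h replicate 2 (adjusted p = 0.141) or replicate 3 (0.189) and without 3 h replicate 1 (0.0718), 2 (0.0594) or 3 (0.125), and within run 1 alone (0.193). The other alternatives run kept the call. Among them were the replicate number as a block (-2.37, edgeR adjusted p = 0.0085) and leaving out 27 h replicate 1 (-3.28, 0.0108), and DESeq2 gave an adjusted p of 0.0496. In the inoculum it ranged from 0.408% to 2.48% of the counts over 3 libraries.

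**Figure D2:**
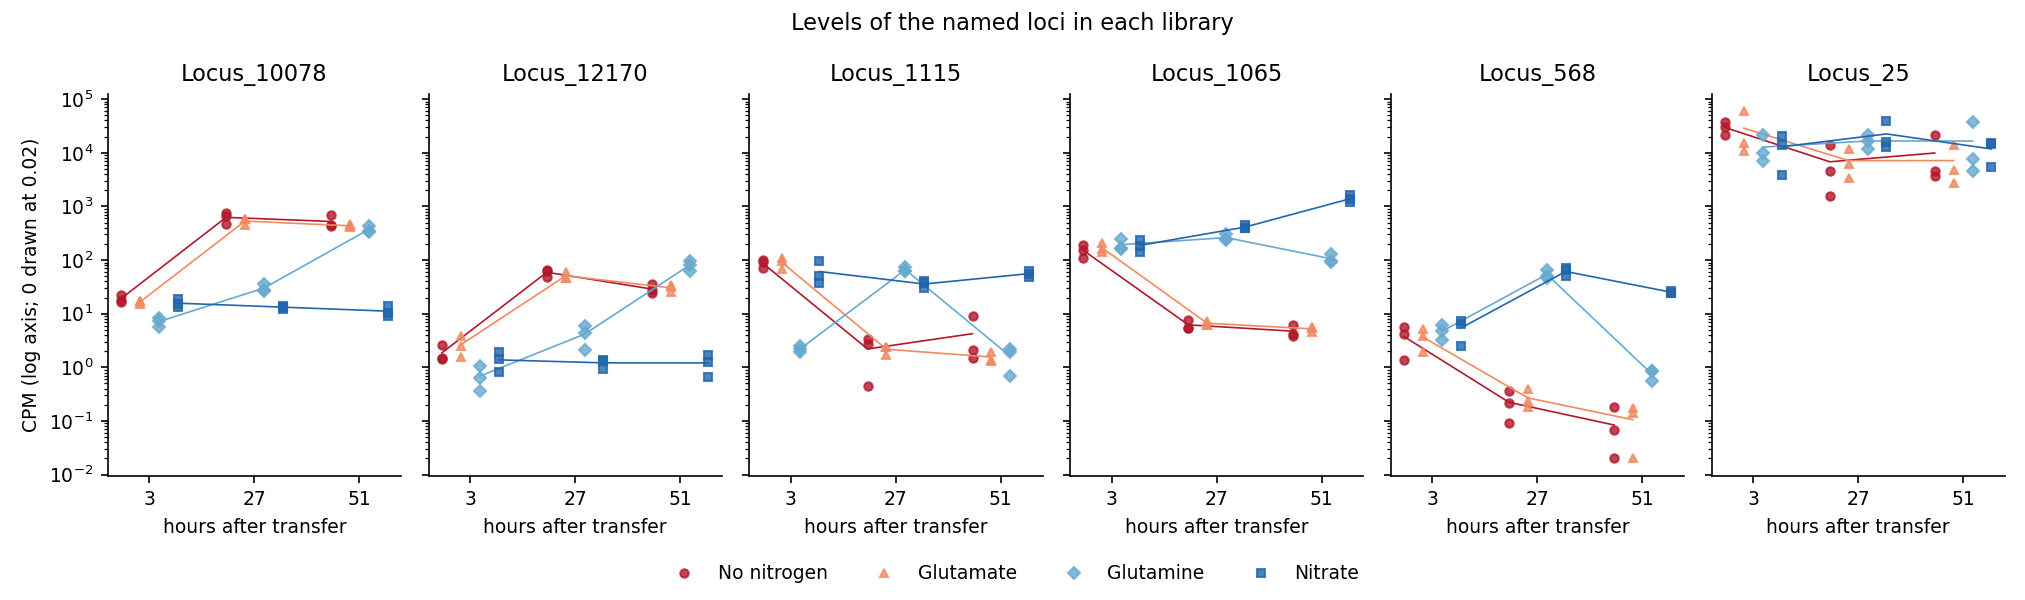
CPM (log axis, 0 drawn at 0.02) of the 6 named loci at 3, 27 and 51 h in no nitrogen, glutamate, glutamine and nitrate, 1 point per library with lines through the means. No nitrogen and glutamate points run together at 27 and 51 h, where glutamate 51 h replicate 3 is a library that stands apart. Locus_1065 and Locus_568, named for the most negative differences from nitrate, move in opposite directions without nitrogen and in nitrate. At 51 h the glutamine means of Locus_10078 (372 CPM) and Locus_1115 (1.60 CPM) lie near those of no nitrogen and glutamate. That of Locus_1065 (106 CPM) lies far above them.

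Falls made up a larger share of the called loci among abundant loci than among loci of 1 to 10 TPM before transfer. Loci were grouped by their mean TPM in the 3 inoculum libraries, which entered neither side of the comparison. Of the 1120 tested loci under 1 TPM, 224 rose (20.0%) and 10 fell (0.893%), and their median log2 fold change was 0.82. A locus of this class can pass the count filter through another group in which it is higher, so its values are a description that the filter helps to set. The filter removed 562 loci of this class, and with no filter 14.3% of its 1682 loci rose and 0.654% fell. Among the 11030 loci of 1 to 10 TPM, 12.7% rose and 7.69% fell, with a median of 0.12. Among the 4808 loci of 10 to 100 TPM, 12.2% rose and 29.9% fell, with a median of -0.20. Of the 611 loci at 100 TPM or more, 56 rose (9.17%, 95% Wilson interval 7.13 to 11.7%) and 197 fell (32.2%, interval 28.7 to 36.0%), with a median of -0.26. These intervals count loci, which are not independent. With no filter the class of 1 to 10 TPM had 12.04% rises and 7.39% falls and that of 100 TPM or more 8.84% and 32.1%. The part of depth in these shares was not tested.

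**Figure D3:**
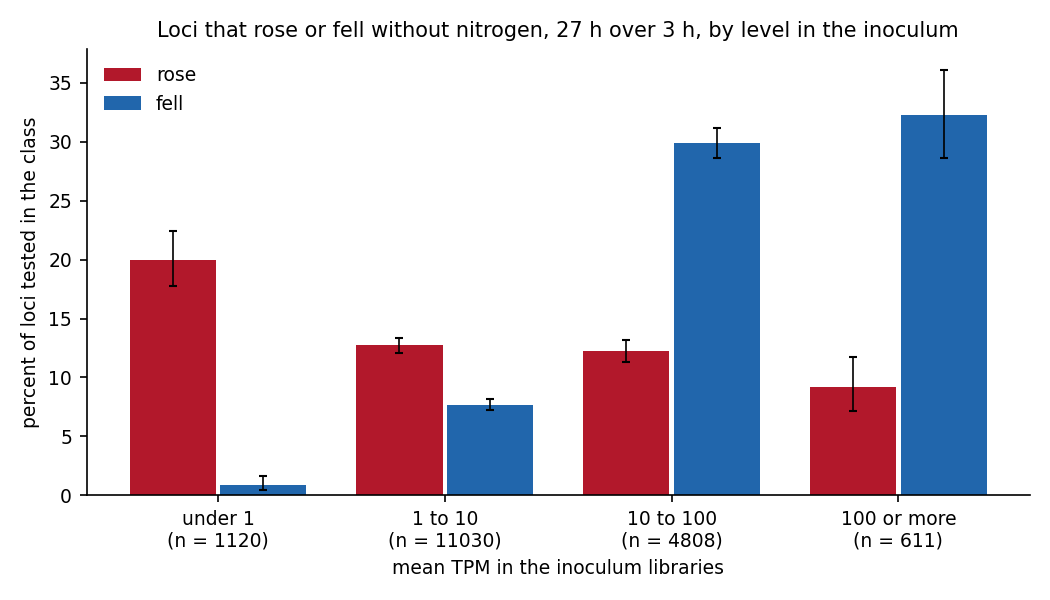
Percent of the tested loci that rose (red) or fell (blue) from 3 to 27 h without nitrogen, by mean TPM in the inoculum; bars show 95% Wilson intervals over loci. The share that fell is 7.69% at 1 to 10 TPM and 32.2% at 100 TPM or more, and the class under 1 TPM (20.0% and 0.893%) holds only loci that passed the count filter, which helps to set its values.

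In median TPM the risen loci stood at 4.87 at 3 h, 10.7 at 27 h and 10.8 at 51 h without nitrogen, after 4.73 in the inoculum. The fallen loci stood at 18.7, 10.1 and 10.5 at the same times, after 14.7 in the inoculum, and all tested loci at 6.09, 6.35 and 6.55, after 5.39. The 2 sets were thus well apart in level at 3 h and level with each other at 27 and 51 h. Without replicate 1 of 51 h the medians at 51 h were 12.8 for the risen, 12.1 for the fallen and 7.88 for all tested loci. Together the risen loci held 5.78%, 8.41% and 12.9% of all TPM in the 27 h libraries of replicates 1, 2 and 3, against 4.41%, 4.07% and 4.90% in those of 3 h. The fallen loci held 4.40%, 6.12% and 6.05% at 27 h, against 9.94%, 10.7% and 13.3% at 3 h. Without Locus_25 the fallen loci held between 4.196% and 6.022% at 27 h, and between 9.37% and 12.4% at 3 h. The sets were chosen on these libraries, so these shares describe them and are not tested.

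The glutamate libraries are on neither side of the comparison that called these loci, although they entered the filter and the estimate of spread. There the loci that rose without nitrogen held 5.49%, 6.84% and 11.1% of TPM at 27 h, against 3.05%, 4.69% and 4.87% at 3 h, with no overlap. Those that fell without nitrogen held 3.97%, 5.02% and 7.91% at 27 h, against 6.87%, 11.4% and 14.1% at 3 h. These groups overlapped, through replicate 3 of 27 h and replicate 1 of 3 h, and the share was lower at 27 h within each of the 3 replicates. With lists from a fit of the 6 no nitrogen libraries alone, the glutamate shares were 6.43%, 7.69% and 9.79% at 27 h against 3.25%, 4.04% and 4.04% at 3 h for 1508 risen loci. For 1933 fallen loci they were 3.33%, 4.17% and 6.61% at 27 h against 6.00%, 9.98% and 12.4% at 3 h.

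**Figure D4:**
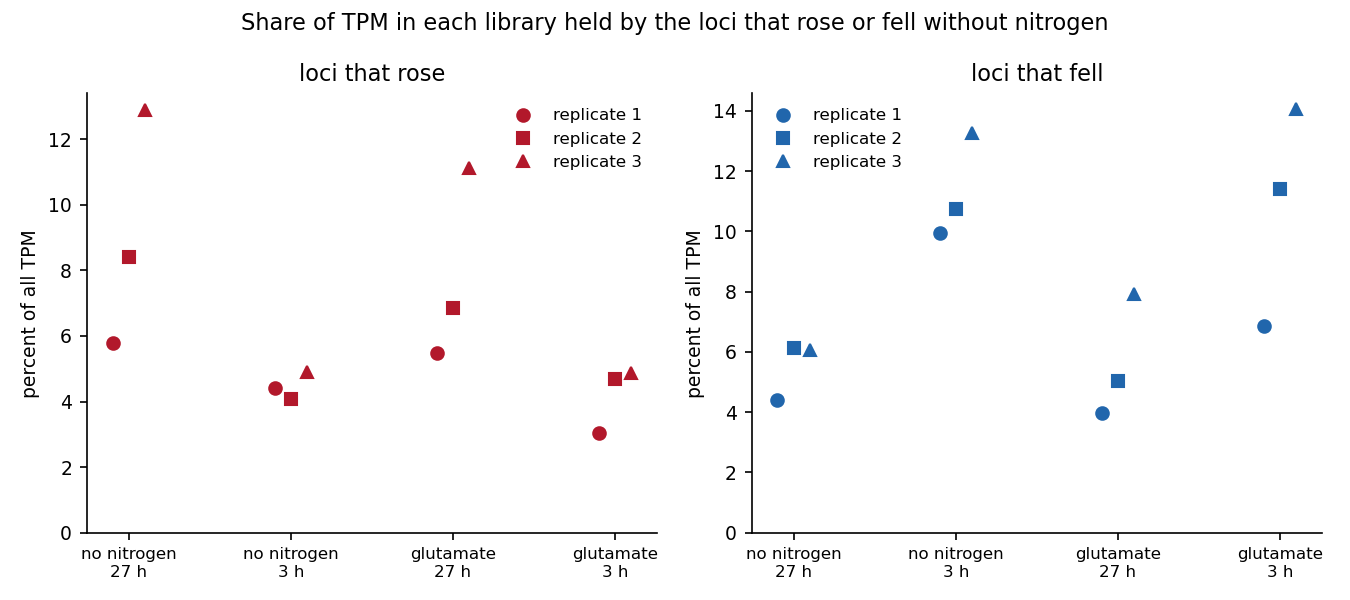
Percent of all TPM held by the loci that rose (left) or fell (right) from 3 to 27 h without nitrogen, in each no nitrogen and glutamate library, with a marker shape per replicate. The risen loci hold 5.78% to 12.9% at 27 h and 4.07% to 4.90% at 3 h without nitrogen, and the glutamate libraries, which are on neither side of that comparison, show the same order of times in each replicate.

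The spread of RNA over loci gave no difference between the times that held over left-out libraries. The 10 loci with most counts took 58.6%, 51.0% and 45.2% of the counts in the 27 h libraries, against 52.7%, 50.2% and 45.1% in the 3 h libraries (difference 2.25 percentage points, exact permutation p = 0.6, two-sided and unpaired, where 3 against 3 cannot go below 0.1). The share was higher at 27 h in each of the 3 same-numbered pairs, by little in 2 of them, and the difference of means was -1.24 without 27 h replicate 1 and 5.46 without 27 h replicate 3. The effective number of loci, the exponential of the Shannon entropy of the count shares, was 117, 226 and 321 at 27 h, against 185, 207 and 333 at 3 h (difference -20.6, exact permutation p = 0.9). This difference was 31.7 without 27 h replicate 1, 25.2 without 3 h replicate 3 and -70.5 without 27 h replicate 3. Replicate 3 had the lowest share of the 10 top loci and the highest effective number at both times. Counts were seen in 18353 ± 27 loci at 27 h and 18206 ± 228 at 3 h (SD, n = 3 each; exact permutation p = 0.3), and in 18179 ± 127 and 18109 ± 144 when every library was thinned to 6499166 counts (exact permutation p = 0.5).

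Glutamate served, per the labels, as a control for starvation in the presence of an amino acid that these cells leave unused. Its 6 libraries of 27 and 3 h are separate from the no nitrogen ones and share with them the inoculum of each replicate. Of the loci that rose without nitrogen, 1619 were called higher at 27 h in glutamate, where 31.6% of the tested loci were called in all. They make up 71.3% of the 2271 and 58.5% of the 2766 that rose in glutamate (15.7% of those tested), and 0 were called lower. Of those that fell, 2027 were called lower, 81.4% of the 2491 and 72.6% of the 2792 that fell in glutamate (15.9% of those tested), and 0 were called higher. Of all 4762 called loci 4726 had the same sign in glutamate, and over all 17569 loci 82.7% had the same sign and the changes correlated at Pearson's r of 0.829, a description across loci.

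The sizes were also close. The loci called without nitrogen had median log2 changes of 1.00 and -0.88 without nitrogen and of 0.91 and -0.85 in glutamate, and the loci called in glutamate had 0.85 and -0.77 without nitrogen and 1.14 and -0.87 in glutamate. Each list is larger in the medium that chose it. The test of the difference between the media called 0 loci (edgeR, 421 at an unadjusted p under 0.05), and DESeq2 and limma also called 0. The 95% interval of the difference lay within 2-fold for 46.7% of the tested loci and for 65.8% of the 4762 called, and for the remaining loci the interval reached beyond 2-fold. Locus_10078 had a glutamate mean of 533 ± 78.8 CPM at 27 h, against 16.5 ± 1.45 CPM at 3 h, and Locus_1115 one of 2.17 ± 0.427 CPM at 27 h, against 91.8 ± 20.9 CPM at 3 h (SD, n = 3 each).

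In nitrate the same hours after transfer passed with a nitrogen source present. Risen loci were called there at close to the share of all tested loci, and fallen loci were called lower at a larger share. The nitrate culture had 449 loci higher and 508 lower at 27 h than at 3 h, 5.45% of those tested. These counts moved widely with single libraries. Without nitrate 27 h replicate 1 they were 190 and 146, without its replicate 3 they were 211 and 242, and without its replicate 2 the falls were 280. Without nitrate 3 h replicate 2, which stands apart, they were 321 and 203, without its replicate 1 the falls were 338, and with the replicate block 712 rose and 735 fell. Of the loci that rose without nitrogen, 63 were called higher in nitrate and 61 lower, which is 2.77% and 2.69% against 2.56% and 2.89% of all tested loci. Of those that fell, 174 were called lower (6.99%) and 74 higher (2.97%). The median log2 change in nitrate was 0.02 over the risen and -0.09 over the fallen loci, against -0.05 over all tested loci. The changes of the 2 media correlated at Pearson's r of 0.0498 across loci. Without nitrate 3 h replicate 2, 46 of the risen loci were called higher and 25 lower (2.03% and 1.10%, against 1.81% and 1.14% of all tested), and 62 of the fallen loci were called higher and 86 lower (2.49% and 3.45%). The medians were then 0.03 over the risen loci and -0.0016 over the fallen, and r was 0.0258.

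The difference itself was tested as an interaction, the change without nitrogen minus the change in nitrate. It was called for 2834 loci (16.1% of those tested), of which 1311 (7.46%) changed more upward and 1523 (8.67%) more downward without nitrogen. Of the 2271 risen loci 971 (42.8%) passed this test in the same direction and 0 in the other, and of the 2491 fallen loci 1184 (47.5%) passed in the same direction and 4 in the other, where both tests use the same no nitrogen libraries. The remaining risen and fallen loci are not shown to differ from the nitrate course. These overlaps were not computed without nitrate 3 h replicate 2. Higher calls were 46.3% of all calls with TMM scaling, 92.0% with library totals (332 higher and 29 lower) and 91.4% with limma on log2(TPM + 1) (170 and 16). Under these scalings the median of all loci was 0.60 and 0.40, against 0.08 with TMM. Without nitrate 3 h replicate 2 there were 1013 higher and 1699 lower calls, and within run 1 alone 412 and 642. With the replicate block there were 1599 higher and 1846 lower calls.

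Of the loci named here, 2 moved in opposite directions in the 2 media. These 2 were named for the most negative differences from nitrate, a choice that favours such moves. Locus_1065 averaged 6.20 ± 1.17 CPM at 27 h, against 151 ± 39.3 CPM at 3 h, without nitrogen (SD, n = 3 each). In nitrate it was at 396, 446 and 394 CPM at 27 h, against 141, 241 and 181 CPM at 3 h. The difference of the log2 changes was -5.74 (SE 0.32, edgeR adjusted p = 1.92e-15), and the rise in nitrate was itself called (log2 fold change 1.13, edgeR adjusted p = 9.49e-04). Locus_568, which had the most negative difference among the loci that met the naming rule, had 0.0935, 0.215 and 0.360 CPM in the no nitrogen libraries of 27 h, against 1.37, 5.64 and 4.19 CPM in those of 3 h. It rested on few counts there, namely 1, 3 and 4 at 27 h and 14, 34 and 52 at 3 h. In nitrate it had 70.2, 49.4 and 64.2 CPM at 27 h, against 2.54, 7.17 and 6.48 CPM at 3 h. It was thus low at 3 h in both media, lower still at 27 h without nitrogen, and high at 27 h in nitrate. The difference of log2 changes was -7.40 (SE 0.60, edgeR adjusted p = 4.55e-11). Locus_568 met the minimum mean of 10 CPM over the 4 groups only through nitrate 27 h, where it is high. Its place as the extreme is therefore partly set by the naming rule.

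The other 3 loci named by rule were not called in nitrate. Locus_10078 was at 13.3 ± 1.04 CPM at 27 h and 15.7 ± 2.57 CPM at 3 h there, and its log2 change differed between the media by 5.28 (SE 0.31, edgeR adjusted p = 5.64e-15). Locus_12170 was at 1.21 ± 0.231 CPM at 27 h, against 1.38 ± 0.547 CPM at 3 h, with a difference of 5.15 (SE 0.52, edgeR adjusted p = 3.71e-09). It met the minimum mean of the naming rule only through no nitrogen 27 h. Locus_1115 was at 35.7 ± 5.19 CPM at 27 h, against 61.2 ± 30.6 CPM at 3 h, a log2 fold change of -0.77 (adjusted p = 0.2 by edgeR, 0.0353 unadjusted), with a difference of -4.51 (SE 0.56, edgeR adjusted p = 2.36e-07). For Locus_25 the difference of -2.93 was not called (edgeR adjusted p = 0.0707). It was called with the replicate number as a block (-3.31, adjusted p = 0.0123), with the run as a covariate (-3.14, 0.0408) and without 27 h replicate 1 (-4.09, 0.0157). Locus_25 ranged from 12975 to 38322 CPM at 27 h and from 3888 to 20589 CPM at 3 h in nitrate.

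**Figure D5:**
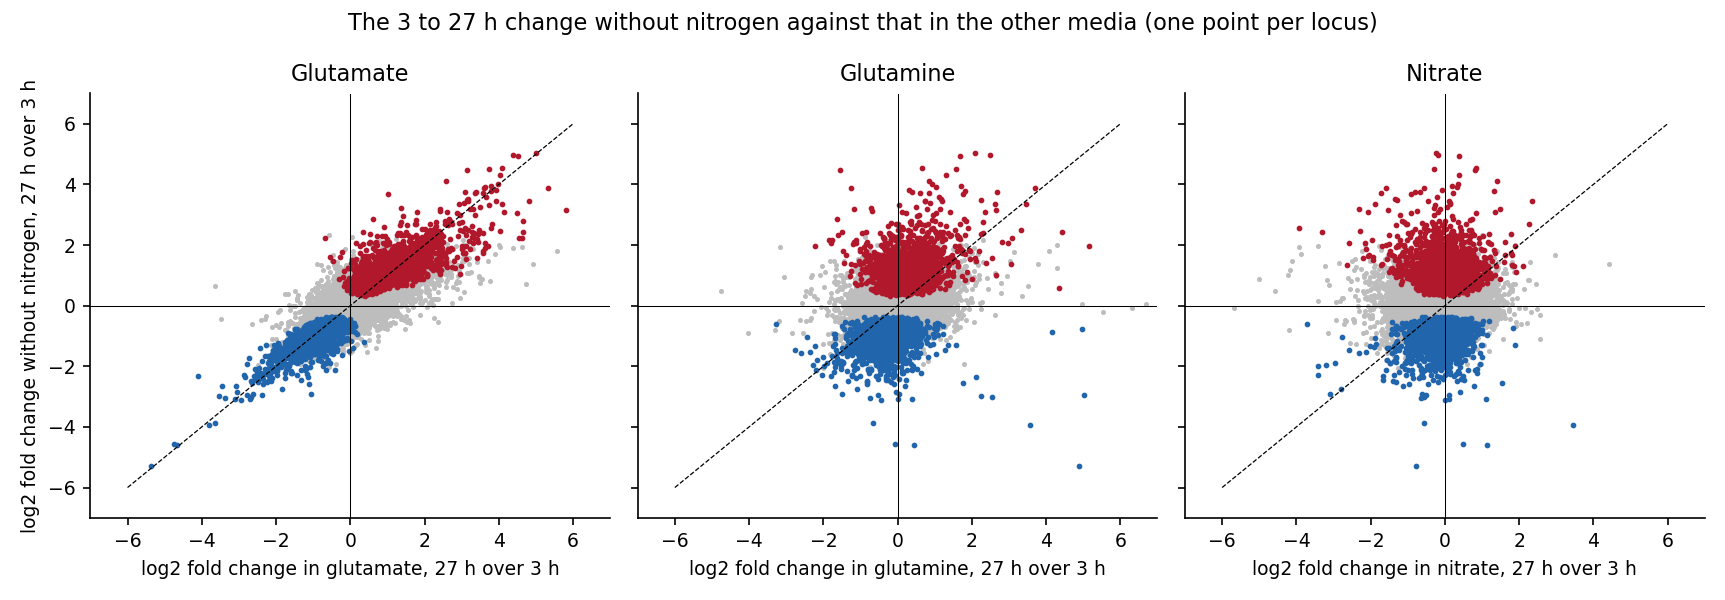
Log2 fold change of 27 h over 3 h without nitrogen (vertical axis) against that in glutamate, glutamine and nitrate (horizontal axes), 1 point per tested locus, with loci called higher (red) or lower (blue) without nitrogen and the line of equal change dashed. The points follow the line in glutamate (r of 0.829), follow it weakly in glutamine (0.304) and show no slope in nitrate (0.0498).

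The glutamine course, with 9.67% of the tested loci called, had medians between those of glutamate and nitrate. The run is not balanced over its 2 times. Over the loci that rose without nitrogen its median log2 change was 0.25, with 290 called higher (12.8%, against 4.94% of all tested loci) and 26 lower, and over those that fell it was -0.24, with 451 called lower (18.1%, against 4.73%) and 48 higher. The test of the difference between no nitrogen and glutamine called 1778 loci (10.1% of those tested), 730 (4.16%) more upward and 1048 (5.97%) more downward without nitrogen. The 730 became 377 without replicate 1 of glutamine 3 h, 469 without replicate 3 of glutamine 27 h and 479 without that of no nitrogen 3 h, and within run 1, with 1 glutamine library of 27 h, 71 and 147 were called. Locus_1115 ran the other way in glutamine, where its 27 h mean was 66.2 ± 6.20 CPM against 2.22 ± 0.254 CPM for 3 h (SD, n = 3 each), and its log2 changes differed by -10.17 between no nitrogen and glutamine (edgeR adjusted p = 5.96e-15). By 51 h its glutamine mean was 1.60 ± 0.808 CPM (SD, n = 3). Locus_10078 was called higher in both media, in glutamine with a 27 h mean of 30.0 ± 4.55 CPM against 7.12 ± 1.31 CPM for 3 h, with a rise larger by 2.94 on the log2 scale without nitrogen (edgeR adjusted p = 8.29e-09).

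At 51 h without nitrogen the 4 loci with the largest rises and falls still lay apart from their 3 h values. The run is not balanced between 51 h and the earlier times. Locus_10078 was at 680.1, 452 and 439 CPM in the 51 h libraries of replicates 1, 2 and 3, and Locus_1065 at 6.08, 3.80 and 4.27 CPM. Locus_1115 was at 9.13, 2.07 and 1.52 CPM, where the highest value is that of replicate 1, the library that stands apart. Locus_12170 was at 23.9, 27.2 and 35.5 CPM at 51 h, under all 3 values of 27 h and above all 3 of 3 h, with a mean of 28.9 ± 5.98 CPM at 51 h (SD, n = 3; adjusted p = 0.039 for 51 h over 27 h by edgeR, where 0.535% of the tested loci were called). That last difference was not called without 51 h replicate 1 (log2 fold change -0.93, edgeR adjusted p = 0.144), nor without 51 h replicate 2 (adjusted p = 0.153) or 3 (0.061), or 27 h replicate 1 (0.0828) or 3 (0.203), nor with library totals, limma, run 1 alone or these groups alone. Among the 42 loci that rose at least 8-fold by 27 h, the median TPM was 1.52 at 3 h, 18.9 at 27 h and 22.6 at 51 h, and among the 10 that fell at least 8-fold it was 58.1, 3.38 and 3.46. Without replicate 1 of 51 h the 51 h medians were 27.7 and 3.66 TPM.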

How the data were processed

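The authors deposited whole-number read counts and TPM values for 18495 loci in 39 libraries, both with the 39 library titles as columns. Per the labels' protocols, ribosomal RNA was depleted from total RNA and strand-specific libraries were sequenced from single ends. Tools listed in the submitters' processing notes, with no role given, are edgeR 3.4.0, RSEM, STAR and FastQC. Build, annotation and strand setting are not given in the sources available. Cultures were run in duplicate per the labels, and how duplicates entered a library is not stated.

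The deposited counts went into edgeR 4.0.16 (R 4.3.3). Filtering with filterByExpr removed 926 loci with 0.0235% of the counts. All 39 libraries entered a quasi-likelihood fit with TMM scaling and a mean per group, and p-values were Benjamini-Hochberg adjusted over 17569 loci and read at 0.05. Standard errors come from the F values and are approximate. Within-replicate log2 changes took 2 as prior count. Intervals around shares of loci reflect counting alone. Alternatives used DESeq2 1.42.0, limma 3.58.1 on log2(TPM + 1) and log2(TPM + 0.1), other scalings, no filter, blocks and left-out libraries. The fits were tested on simulated counts in which 100 loci changed 2-fold and 100 changed 4-fold without nitrogen. For 27 h over 3 h, 38% and 83% of these were called, with 7 false calls. For the difference from nitrate, 18% and 65% were called, with 3 false calls. Far fewer loci changed there than were called in the data, so these shares do not carry over directly. The difference from glutamate was not simulated.

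The libraries and lists were chosen with earlier results of these data known. Named were, among loci past the threshold, the 2 most positive and the 2 most negative in log2 change, with a mean of at least 10 CPM and, for 27 h over 3 h, no overlap between groups. The same was done for the difference from nitrate, with no condition on overlap. Gene lists could not be applied, since the deposited IDs have no gene names. Locus_25, all 51 h tests under alternatives, the classes with no filter, the lists from 6 libraries and the medians and overlaps without libraries that stand apart were added after the data were seen. Because each repeat of the experiment has its number in the labels, equal numbers pair libraries. The main fit has no term for this pairing, and the replicate block is the alternative that has it. Deviations of same-numbered 27 and 3 h libraries correlated at -0.272, -0.157 and -0.00825, and those of differently numbered ones at -0.130 to 0.306. No 2 libraries of a group agreed within sampling noise (lowest chi-square per degree of freedom 9.14).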

Additional observations from a re-analysis of the deposited data

Results flagged for a closer look

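Changes from 3 to 27 h that differ between media by a test of the difference itself are listed here. Between no nitrogen and nitrate 2834 loci differed, and between no nitrogen and glutamine 1778 did. The change without nitrogen minus the change in nitrate was 5.28 for Locus_10078, 5.15 for Locus_12170, -4.51 for Locus_1115, -5.74 for Locus_1065 and -7.40 for Locus_568, all on the log2 scale and called by edgeR at the adjusted p given above. Single values far from the others were not searched for within groups of 3 libraries. The part of library quality in these differences was not tested, and the counts without nitrate 3 h replicate 2, which stands apart, are 1013 higher and 1699 lower against nitrate.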

How the results depend on the processing

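The 3 to 27 h changes of the 5 loci named by rule, and their differences from nitrate, kept direction and call under all alternatives run, 18 for the change and 24 for the difference, and Locus_25 kept its direction but not its calls, as stated above. For the change without nitrogen the log2 range was 4.84 to 5.17 for Locus_10078, 4.58 to 5.32 for Locus_12170, -5.80 to -4.72 for Locus_1115, -4.82 to -4.33 for Locus_1065 and -4.42 to -1.93 for Locus_568. The difference of no nitrogen from glutamate stayed at 0 calls in all alternatives run. Counts with RLE scaling, no filter, DESeq2, the run as a covariate or the replicate block stayed within 1.5 times, except 712 rises in nitrate with the replicate block, against 449. The causes of the following moves were not tested.

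Counts are given as higher and lower at 27 h, or more upward and more downward without nitrogen. With library totals they were 418 and 323 without nitrogen, 1050 and 311 in glutamate, 4 and 76 in nitrate, 49 and 14 in glutamine, 332 and 29 against nitrate, and 15 and 38 against glutamine. With limma on log2(TPM + 1) they were 279 and 223, 561 and 207, 3 and 26, 39 and 10, 170 and 16, and 23 and 31 in that order. On log2(TPM + 0.1) they were 247 and 208, 485 and 200, 3 and 34, 42 and 8, 165 and 18, and 9 and 30, and with no filter on log2(TPM + 1) they were 281 and 222, 554 and 202, 3 and 25, 39 and 10, 167 and 17, and 22 and 31. Within run 1, with fewer libraries, they were 810 and 1415, 1480 and 1828, 126 and 161, 59 and 27, 412 and 642, and 71 and 147. A fit of the compared groups alone gave 1508 higher without nitrogen, 223 and 241 in nitrate, 1414 and 1359 in glutamine, and 766 more upward against nitrate. Without the 3 libraries that stand apart (nitrate 3 h replicate 2, no nitrogen 51 h replicate 1 and glutamate 51 h replicate 3) 268 loci fell in nitrate.

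Leaving out each library in turn gave 1413 to 2308 higher and 1900 to 2526 lower without nitrogen, 2090 to 2367 and 2280 to 2711 in glutamate, 190 to 373 and 146 to 427 in nitrate, and 444 to 690 and 365 to 624 in glutamine. Against nitrate it gave 878 to 1601 and 1088 to 1821, and against glutamine 377 to 773 and 717 to 1221. For 51 h over 27 h, where none of these loci but Locus_12170 was called, the sign turned for Locus_1115 to -0.38 without the 3 libraries, -0.34 without 27 h replicate 3 and -0.39 without 51 h replicate 1 (-0.39 to 0.76 over left-out libraries), for Locus_1065 to 0.12 within run 1, and for Locus_25 to -0.68 without the 3 libraries and -0.71 without 51 h replicate 1 (-0.71 to 1.67 over left-out libraries). Depth limits loci of few counts, such as Locus_568, most.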

Other observations

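Counts were present in all 6 libraries for 17709 of the 18495 loci. There were 14 loci with no count in any 3 h library and counts in all 27 h libraries, the most abundant of them with 14 counts over the 27 h libraries. The reverse pattern held for 1 locus, with 3 counts over the 3 h libraries.

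The median relative length of the loci that moved was above that of all tested loci, with wide overlap. The ratio of deposited count to TPM, which follows effective transcript length and varied 1.02-fold in the median over the 6 libraries, was scaled to a median of 1 over all tested loci. Its median was 1.29 over the risen loci (quartiles 0.801 and 1.94) and 1.23 over the fallen loci (0.842 and 1.76), against quartiles of 0.564 and 1.55 over all tested loci. The part of counts per locus in this difference was not tested.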
